A study of Rattus norvegicus with 18 samples.

Results

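The leukocyte integrins and the proteins that activate them were followed as a set of 10 genes in encephalitogenic rat T cells. The set holds 3 integrin α-chain genes (*Itga4*, *Itgal* and *Itgae*), 3 β-chain genes (*Itgb1*, *Itgb2* and *Itgb7*), 3 genes for proteins that switch integrins on (*Tln1*, *Fermt3* and *Rap1b*) and *Selplg*, which encodes a selectin ligand. The rule selects rows by gene name and uses no measured value, but the members were chosen with earlier results of these data known. Each of the 10 genes had 1 row among the 32882 genes of each table. All cells were Lewis rat CD4+ T cells reactive to myelin basic protein (T-MBP cells). They received Cas9 and a guide, were restimulated with antigen and transferred into Lewis rats, and were sorted at day 3 after transfer by their fluorescent protein. The 6 groups held 3 libraries each. Cells edited for *Ets1* were compared with control cells in spinal cord parenchyma and in spleen, cells edited for *Grk2* in spleen alone, and each of the 3 comparisons had its own controls. Control cells carried a non-targeting guide and BFP and are given the genotype WT in the sample labels, whereas KO cells carried a guide to the gene and EGFP. Control cells therefore received Cas9 and a guide and were transferred as well, but no gene was targeted in them. All groups went through in vitro expansion and were isolated at day 3 after transfer. The labels do not say whether the 3 comparisons shared a culture or a date of isolation. The share of edited alleles was not analysed here, so that a KO group need not lack the protein in every cell.

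Integrins are pairs of an α and a β chain that anchor leukocytes to vessel walls and tissue. The α4 chain pairs with β1 to form VLA-4, a receptor of VCAM-1 and fibronectin, or with β7 to form a receptor of MAdCAM-1. The αL chain pairs with β2 to form LFA-1, which binds ICAMs, and αE pairs with β7 to bind E-cadherin. Resting integrins are bent and bind weakly. Rap1 GTPases recruit talin (*Tln1*) to the β-chain tail, where kindlin-3 (*Fermt3*) binds as well, and both are needed for the extended, high-affinity state. PSGL-1, the product of *Selplg*, lets leukocytes roll on selectins before integrins arrest them. These steps are known best for lymphocytes that leave blood vessels, including those of the inflamed CNS.

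Within each comparison, KO and control cells differ by the guide that they received and by their fluorescent protein. The effects of guide and fluorescent protein cannot be told apart here. The 20-base spacers of the guides are given 5′ to 3′ because they define the comparisons, with the 12 bases nearest the PAM side, where mismatches are tolerated least, in capitals.
Non-targeting guide: gctgcatgGGGCGCGAATCA
*Ets1* guide: tgctgctcGGAGTTAACAGT
*Grk2* guide: gatttgtcAGAACCTCCGAG
None of the guides was designed against a member of the set. No position of the target sites is given, as no genome of the build used by the authors was analysed here.

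The values are normalized counts, that is reads counted per gene and divided by the size factor of the library, from 3′ mRNA sequencing. Libraries held between 898092 and 2248258 reads on genes. The depth was uneven in the spleen *Ets1* table, in which the KO libraries held 1909862 to 2248258 reads and the controls 898092 to 1213485. Replicate 3 of those KO libraries stood apart, with 21.0% of its reads on mitochondrial genes against 14.1% and 14.9%, and members called in the spleen *Ets1* table were 0 with it and 0 without replicate 3. *Grk2* was lower in *Grk2*-KO libraries (68.3 ± 17.4, SD, n = 3) than in their controls (158 ± 14.1, SD, n = 3). *Ets1* read 2551 ± 183 (SD, n = 3) in parenchyma KO libraries and 2400 ± 150 in controls, and 2000 ± 324 and 2077 ± 135 in the spleen. Counting at the 3′ end does not read an indel elsewhere in a transcript, so the level of *Ets1* does not check these labels. All 9 T cell markers examined (*Cd2*, *Cd3d*, *Cd3e*, *Cd3g*, *Cd4*, *Cd5*, *Lat*, *Lck* and *Zap70*) had a mean of at least 10 in every group. *Cd4* was the lowest of them, with group means of 10.8 to 16.4 in the spleen and 28.1 to 42.9 in the parenchyma. The summed level of 8 myeloid markers was 25.4 to 43.2 in parenchyma controls and 33.4 to 60.7 in parenchyma *Ets1*-KO libraries, mostly *Lyz2*, and at most 10.3 in any spleen library, with *Adgre1* at 0 throughout. That of 4 neural and glial markers, mostly *Mbp*, was 70.1 to 93.1 in parenchyma controls, 48.7 to 83.9 in parenchyma *Ets1*-KO libraries and 22.6 to 45.5 in spleen libraries. That of 6 platelet and erythroid markers was at most 5.60 in the parenchyma, 28.4 to 39.8 in the spleen *Ets1* table, mostly *Hba-a1*, and 21.2 to 24.4 in controls and 10.0 to 24.9 in KO libraries of the *Grk2* table, mostly *Pf4*. The CD8, B cell, neutrophil and endothelial lists reached at most 13.1. The part of these cells in the results was not tested.

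Of the 10 genes, 9 were tested in the parenchyma, 8 in the spleen *Ets1* table and 9 in the spleen *Grk2* table, since the mean over the 6 libraries of a table had to reach 10. In the tests across all genes (limma with the replicate number as a block), 1 member passed an adjusted p of 0.05 in any of the 3 comparisons, *Itgb1*, which was 1.29-fold higher in spleen *Grk2*-KO cells. That is 1 of 9 members tested, beside 1.56% of all 6985 genes called in that comparison. The set was chosen with this result for *Itgb1* known, so the count is no independent support. At an unadjusted p under 0.05 were 3 of 9 (*Itgb1*, *Itgae* and *Itga4*), beside 10.4% of genes. In the parenchyma 0 of 9 members were called for *Ets1*-KO, beside 5.23% of 7002 genes, and 2 members, *Itga4* and *Tln1*, had an unadjusted p under 0.05, beside 16.9% of genes. In the spleen 0 of 8 members were called for *Ets1*-KO by limma, edgeR or DESeq2, beside 2.22% of 6979 genes by limma, and 0 had an unadjusted limma p under 0.05, beside 14.1% of genes. The median log2 fold change of the tested members was −0.17 in the parenchyma, −0.0022 in the spleen *Ets1* table and −0.02 in the *Grk2* table, and that of all tested genes was −0.03, 0.00039 and 0.02. Fold changes are on the scale of log2(normalized count + 1).

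**Figure D1:**
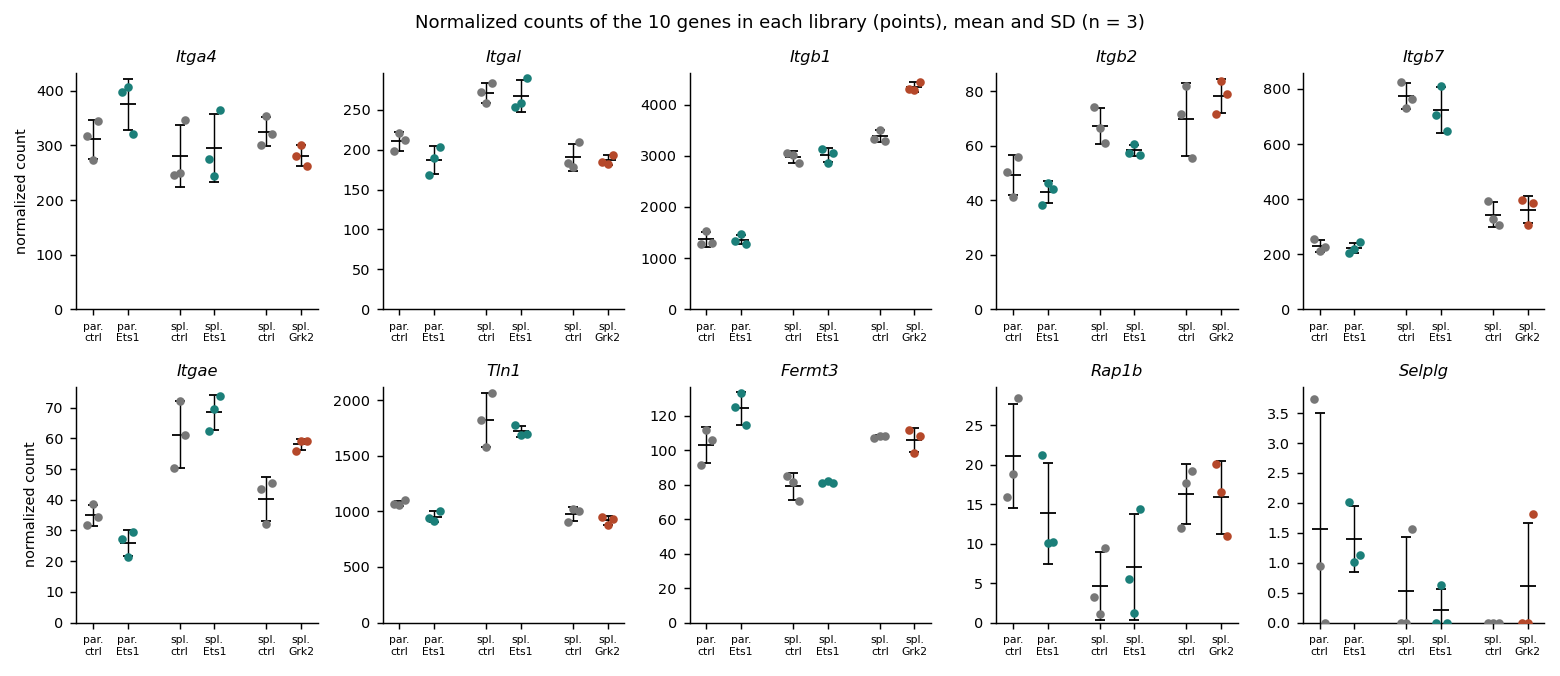
Normalized counts (vertical axes, linear, from 0) of the 10 genes in each library, with the mean and SD of 3 libraries as bars, for parenchyma (par.) and spleen (spl.) control (ctrl, gray), *Ets1*-KO (green) and *Grk2*-KO (red) cells. *Itgb1* in *Grk2*-KO libraries lies between 4279 and 4449, above its controls at 3286 to 3508, whereas most other KO and control groups overlap. SD bars that would reach below 0 are cut at the axis.

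Among the α chains, *Itga4* (chr3:66193058-66263960, + strand, Rnor_6.0), which encodes the α4 chain, read 317, 274 and 344 in parenchyma controls and 398, 406 and 321 in parenchyma *Ets1*-KO libraries. Replicates 1 and 2 of the KO cells were above all controls and replicate 3 was not, so that the groups overlapped. The log2 fold change was 0.27 (SE 0.10, 95% interval 0.08 to 0.46, limma adjusted p = 0.0847), higher in 2 of 3 pairs. In the parenchyma fit limma took the variance from expression level alone. This SE and interval, and those of all parenchyma genes, therefore do not measure the spread of a gene's own libraries. With the variance not tied to expression level the SE of *Itga4* was 0.17 and the limma adjusted p 0.574. Without replicate 3 the log2 fold change was 0.45 and the limma adjusted p 0.00233, so this pair decides the call. In the spleen of the *Ets1* experiment *Itga4* read 245, 250 and 346 in controls and 276, 244 and 366 in KO libraries, with replicate 3 highest in both groups and a log2 fold change of 0.07 (95% interval −0.17 to 0.32, limma adjusted p = 0.835). In the *Grk2* experiment the direction was opposite, with 301, 355 and 321 in controls and 281, 300 and 263 in KO libraries. All 3 *Grk2*-KO libraries were below all controls, by a narrow margin, as in 4.62% of all tested genes. The log2 fold change of −0.21 (SE 0.09, 95% interval −0.38 to −0.03) did not pass the adjustment (limma adjusted p = 0.346). Over the 10 alternative settings it lay between −0.26 and −0.17.

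*Itgal* (chr1:198744049-198781750, + strand), which encodes the αL chain of LFA-1, passed the test in none of the 3 comparisons. Parenchyma controls read 198, 221 and 212 and *Ets1*-KO libraries 168, 189 and 203. The KO library was the lower one in each of the 3 pairs, but the groups overlapped and the log2 fold change was −0.18 (95% interval −0.40 to 0.05, limma adjusted p = 0.452). In both spleen experiments the difference was close to 0, with log2 fold changes of −0.02 (95% interval −0.27 to 0.22) for *Ets1*-KO and −0.02 (95% interval −0.23 to 0.18) for *Grk2*-KO.

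*Itgae* (chr10:59539404-59711874, + strand), the αE chain gene of CD103, stood apart in 2 of the 3 comparisons, in opposite directions, without passing the test. Of all tested genes, 10.5% had KO libraries below all controls in the parenchyma, and 7.59% had them above in the *Grk2* table. *Itgae* read 31.8, 38.6 and 34.4 in parenchyma controls and 27.3, 21.2 and 29.5 in parenchyma *Ets1*-KO libraries. Each KO library was below each control (log2 fold change −0.42, SE 0.25, limma adjusted p = 0.395). In the *Grk2* experiment it read 43.4, 32.1 and 45.5 in controls and 55.9, 59.0 and 59.1 in KO libraries, each KO library above each control. That log2 fold change was 0.53 (SE 0.19, 95% interval 0.15 to 0.90), with an unadjusted p of 0.00602 in limma and an adjusted p of 0.188. In the spleen *Ets1* table the groups overlapped, at 50.3, 72.1 and 61.1 in controls and 62.3, 69.5 and 73.7 in KO libraries. At 21.2 to 73.7 normalized counts over all libraries the counting error is large, and the annotated gene also overlaps *Atp2a3*, *Ncbp3*, *Camkk1* and *P2rx1* on its own strand and *Haspin* on the other, so its counts are uncertain.

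Among the β chains, *Itgb1* (chr19:61677541-61725535, + strand), which encodes the β1 chain shared by VLA-4 and many matrix receptors, read 3334, 3508 and 3286 in the spleen controls of the *Grk2* experiment and 4296, 4279 and 4449 in the *Grk2*-KO libraries. All 3 KO libraries were above all controls, as in 7.59% of all tested genes, and the spread within each group was small. The mean was 4341 ± 94.0 (SD, n = 3) in KO and 3376 ± 117 in control cells, a log2 fold change of 0.36 (SE 0.07, 95% interval 0.23 to 0.49, limma adjusted p = 5.52e-05), higher in 3 of 3 pairs by 0.37, 0.29 and 0.44. An exact two-sided permutation test of these 6 libraries gave p = 0.1, the smallest that 3 against 3 libraries allow. The call was made in 9 of 10 alternative settings, with edgeR (log2 fold change 0.34, adjusted p = 0.000195) and DESeq2 (0.34, adjusted p = 0.00015) among them, and lost where limma's variance was not tied to expression level (adjusted p = 0.546), a setting in which 0 genes passed at all. The share of mitochondrial reads differed between the same groups, at 20.2% to 22.2% in KO and 22.3% to 22.6% in control libraries, and its part in the result was not tested. In bulk libraries, a change in the share of cells with a transcript and a change in RNA per cell cannot be told apart.

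In *Ets1*-KO cells *Itgb1* was not called. It read 1267, 1533 and 1289 in parenchyma controls and 1335, 1461 and 1284 in *Ets1*-KO libraries, a log2 fold change of 0.00 (95% interval −0.14 to 0.14, limma adjusted p = 0.998). In the spleen it read 3060, 3016 and 2850 in controls and 3125, 2867 and 3055 in *Ets1*-KO libraries, a log2 fold change of 0.02 (95% interval −0.23 to 0.26, limma adjusted p = 0.965). The groups overlapped in both tissues. The effect of *Grk2*-KO was not tested against that of *Ets1*-KO.

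**Figure D2:**
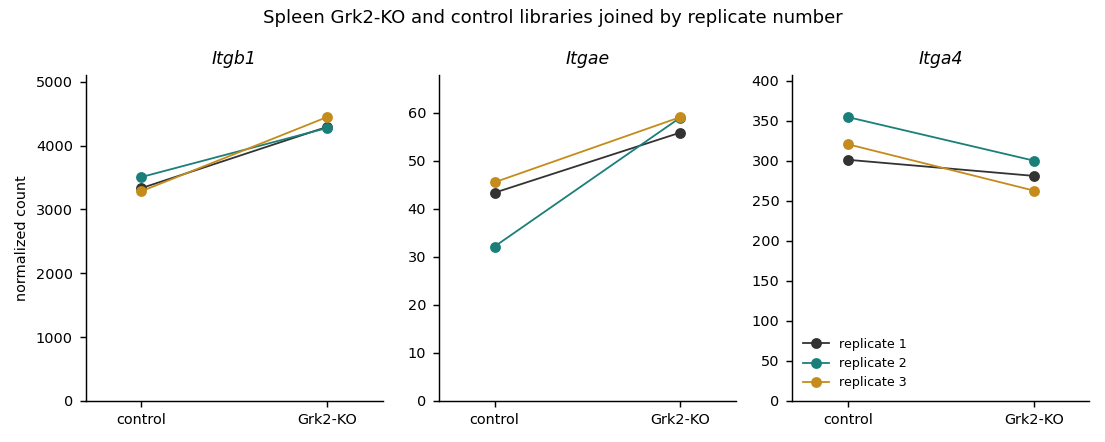
Normalized counts (vertical axes, linear, from 0) of *Itgb1*, *Itgae* and *Itga4* in spleen control and *Grk2*-KO libraries, each line joining libraries of 1 replicate number. All 3 lines of *Itgb1* and of *Itgae* rise and all 3 of *Itga4* fall, and of these 3 genes the test across all genes called *Itgb1* alone.

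*Itgb2* (chr20:11777782-11815647, − strand), the β2 chain gene of LFA-1, read 50.4, 41.4 and 56.0 in parenchyma controls and 38.4, 46.5 and 44.2 in *Ets1*-KO libraries, which overlapped (log2 fold change −0.18, SE 0.20, limma adjusted p = 0.717). In the spleen *Ets1* table the controls, at 74.4, 66.7 and 61.1, were above the KO libraries, at 57.5, 60.8 and 56.8, with the nearest libraries less than 1 count apart. Of all tested genes in that table, 8.88% had KO libraries below all controls. The log2 fold change of *Itgb2* was −0.20 (SE 0.19, 95% interval −0.58 to 0.18, limma adjusted p = 0.688). In the *Grk2* experiment *Itgb2* read 71.5, 82.0 and 55.7 in controls and 71.6, 83.9 and 79.1 in KO libraries, overlapping. *Itgb2* is expressed by myeloid cells too, whose markers are given above, and their part was not tested.

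*Itgb7* (chr7:143820899-143837780, − strand) encodes the β7 chain, the partner of α4 in gut homing and of αE. Its groups overlapped in every comparison. The log2 fold change was −0.05 (95% interval −0.27 to 0.16) in the parenchyma and −0.11 (95% interval −0.34 to 0.13) in the spleen for *Ets1*-KO, and 0.07 (95% interval −0.10 to 0.24) for *Grk2*-KO. The 3 limma adjusted p-values lay between 0.737 and 0.873.

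Of the activators, *Tln1* (chr5:59033635-59063592, − strand), the talin-1 gene, read 1068, 1057 and 1099 in parenchyma controls and 943, 911 and 1006 in parenchyma *Ets1*-KO libraries. Each KO library was below each control, as in 10.5% of all tested genes, and groups lay apart in either direction in 18.4%. The log2 fold change was −0.17 (SE 0.08, 95% interval −0.32 to −0.02), lower in 3 of 3 pairs, and did not pass the adjustment (limma adjusted p = 0.189). *Tln1* overlapped between groups in both spleen tables, with log2 fold changes of −0.07 (95% interval −0.31 to 0.16) for *Ets1*-KO and −0.09 (95% interval −0.23 to 0.05) for *Grk2*-KO. Its annotation overlaps *Creb3* on the opposite strand, a gene that reached 42.5 normalized counts at most.

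*Fermt3* (chr1:222254183-222272285, − strand), the kindlin-3 gene, was the one member with each parenchyma KO library above each control, as in 7.87% of all tested genes. It read 91.5, 112 and 106 in controls and 125, 133 and 114 in *Ets1*-KO libraries. The log2 fold change was 0.27 (SE 0.14, 95% interval −0.0017 to 0.54, limma adjusted p = 0.301), higher in 3 of 3 pairs. In the spleen the groups overlapped, with log2 fold changes of 0.05 (95% interval −0.30 to 0.39) for *Ets1*-KO and −0.03 (95% interval −0.28 to 0.23) for *Grk2*-KO. *Fermt3* was steady in the *Grk2* controls, at 107, 109 and 108.

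*Rap1b* (chr7:60853929-60860990, − strand) encodes a small GTPase upstream of talin and was thinly covered, with 1 to 29 reads per library. It read 15.9, 18.8 and 28.5 in parenchyma controls and 21.2, 10.1 and 10.2 in *Ets1*-KO libraries, overlapping, with a log2 fold change of −0.61 and an interval that spans −1.25 to 0.03 (limma adjusted p = 0.334). In the *Grk2* experiment the log2 fold change was −0.05 (95% interval −0.69 to 0.59). In the spleen *Ets1* table *Rap1b* stayed under the minimum, at 1.08 to 9.40 in controls and 1.24 to 14.4 in KO libraries. Whether reads are shared with its paralog *Rap1a* was not tested.

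*Selplg* (chr12:48577904-48579196, + strand), the PSGL-1 gene, had 13 reads in all 18 libraries together and no library with more than 4. It was at 0 in all 3 spleen controls of the *Grk2* experiment, where 3 reads among 3661374 allow up to 0.819 CPM (reads per 1000000 reads on genes), a limit that covers counting error only. No difference between KO and control was detectable at this depth. The annotated gene spans 1293 bases.

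**Figure D3:**
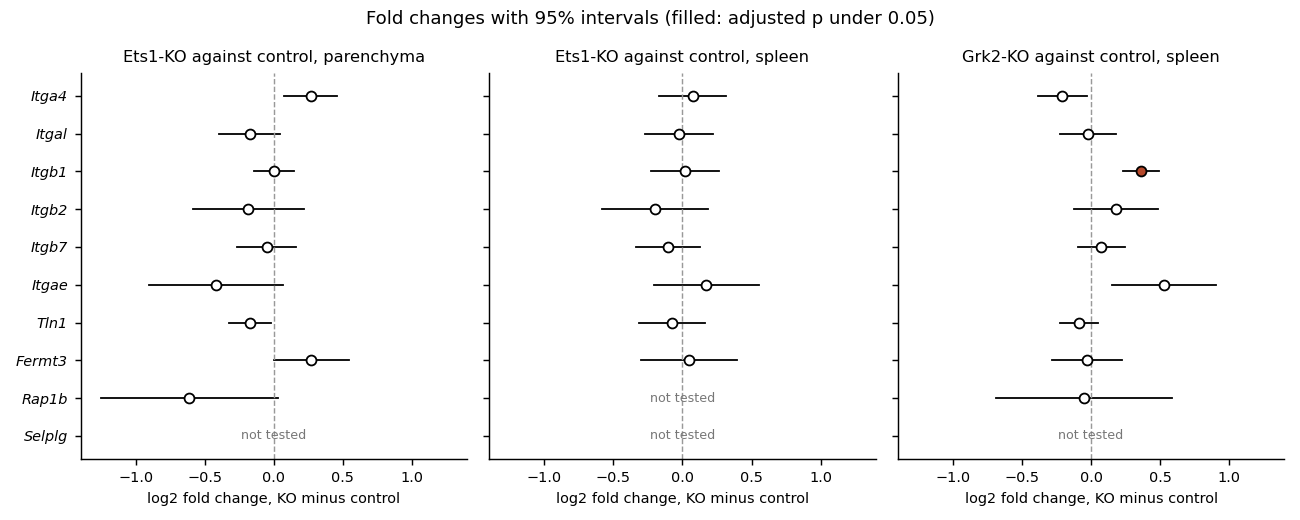
Log2 fold change of KO against control (horizontal axis, log2 of normalized count + 1) for each member in the 3 comparisons, with 95% intervals from limma. A filled point marks an adjusted p under 0.05, which only *Itgb1* in the *Grk2* comparison has, and members under the count minimum are written as not tested.

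Counted over the set, groups lay apart for 3 of 9 members in the parenchyma (*Fermt3* higher, *Itgae* and *Tln1* lower in KO), beside 18.4% of all genes, for 1 of 8 in the spleen *Ets1* table (*Itgb2* lower), beside 16.9%, and for 3 of 9 in the *Grk2* table (*Itgb1* and *Itgae* higher, *Itga4* lower), beside 12.2%. The fold changes had no shared sign, with 3 of 9 above 0 in the parenchyma, 4 of 8 in spleen *Ets1*-KO cells and 4 of 9 in *Grk2*-KO cells.

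Whether *Ets1* editing acted differently in the 2 tissues was tested on the log2 ratios of the pairs. None of the 8 members tested (0 of 8) passed in limma, beside 2.1% of 6520 genes, and 0 had an unadjusted p under 0.05, beside 13.8% of genes. The estimate farthest from 0 was that of *Itgae*, −0.59 in parenchyma minus spleen (SE 0.31, 95% interval −1.21 to 0.03, limma adjusted p = 0.385). For *Itga4* the difference was 0.19 (95% interval −0.13 to 0.52), for *Fermt3* 0.22 (95% interval −0.21 to 0.66) and for *Itgb1* −0.02 (95% interval −0.28 to 0.24).

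The levels of control cells in each tissue are a description with no test, because the tables were scaled apart and tissue and experiment cannot be told apart. Within a gene they are given as CPM. *Itgb1* was lowest in the parenchyma, at 907, 1054 and 912, against 2305, 2334 and 2025 in the spleen of the *Ets1* experiment and 2609, 2709 and 2471 in that of the *Grk2* experiment. Parenchyma libraries were thus below all spleen libraries, by 2.32-fold and 2.71-fold in the means. The *Grk2* controls were also above the other spleen controls, by a smaller step.

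*Itgb7* was lowest in the parenchyma as well, at 163 ± 18.2 (SD, n = 3), against 264 ± 39.9 and 578 ± 40.4 in the spleens of the *Grk2* and *Ets1* experiments. The 2 spleen groups differed from each other by 2.18-fold, more than parenchyma and the nearer spleen group did, at 1.63-fold. *Itgb2* was at 34.7 ± 5.72 in the parenchyma and at 50.4 ± 6.40 and 53.7 ± 10.9 in the spleens of the *Ets1* and *Grk2* experiments, with parenchyma below both. On normalized counts the parenchyma and *Grk2* spleen groups of *Itgb2* overlapped. In means, the 3 β chains were lowest in the parenchyma. The share of all genes with that order was not computed. In CPM the 2 spleen control groups did not overlap each other for *Itgal*, *Itgae*, *Itgb1*, *Itgb7*, *Tln1*, *Fermt3* and *Rap1b*. The share of all genes for which these 2 groups lay apart was not computed either, so this is not a trait of the set.

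Among the α chains, *Itga4* was at 219 ± 28.4 in the parenchyma, 208 ± 33.3 in the spleen of the *Ets1* experiment and 250 ± 20.6 in that of the *Grk2* experiment, with all groups overlapping. *Itgal* was at 148 ± 5.50, 202 ± 2.75 and 146 ± 10.2 in the same order, and *Itgae* at 24.5 ± 1.90, 45.7 ± 9.15 and 31.0 ± 5.35. For both genes the spleen of the *Ets1* experiment was above the other groups, while parenchyma and the *Grk2* spleen overlapped. Among activators *Tln1* had that same order, at 756 ± 26.4, 1353 ± 124 and 751 ± 41.4. *Fermt3* had another, at 72.5 ± 6.15, 59.2 ± 7.91 and 83.1 ± 1.45, and *Rap1b* was lowest in the spleen of the *Ets1* experiment, at 3.33 ± 3.02, against 14.8 ± 4.70 in the parenchyma and 12.5 ± 2.77 in the *Grk2* spleen.

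**Figure D4:**
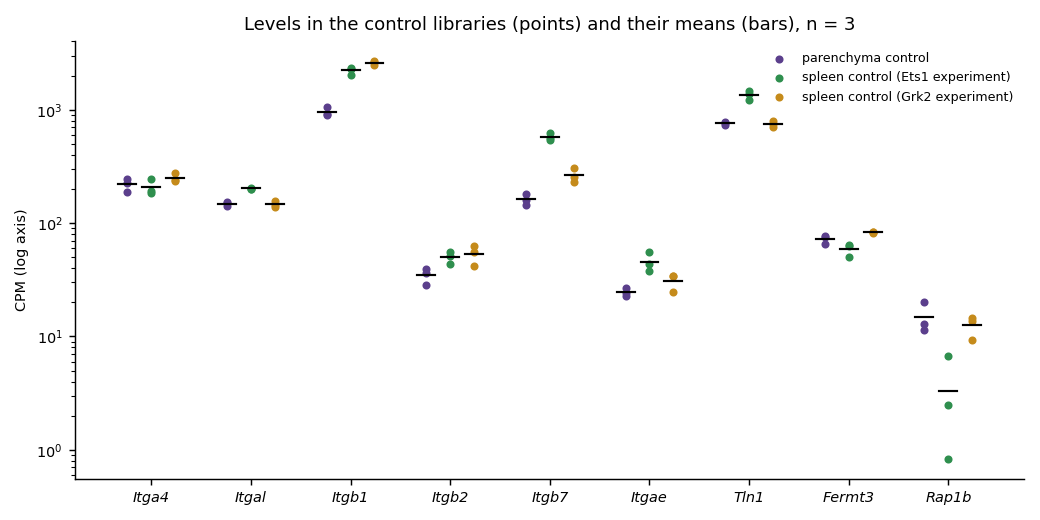
CPM (reads per 1000000 reads on genes, vertical axis, log scale) of 9 members in the control libraries of the 3 tables, with bars at the means of 3 libraries. *Itgb1* in the parenchyma lies between 907 and 1054, below all spleen libraries, while *Itga4* overlaps in all groups. The spleen groups do not overlap each other for *Itgal*, *Itgae*, *Itgb1*, *Itgb7*, *Tln1*, *Fermt3* and *Rap1b*, and the share of all genes was not computed. *Selplg* is left out because of values of 0.

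Genes around the set were counted in 4 lists. Of 34 genes for integrin activation and adaptors, 26 were tested in the parenchyma and 4 were called, all 4 lower in *Ets1*-KO cells, beside 5.23% of all genes called. At an unadjusted p under 0.05 in limma were 9 of 26, beside 16.9% of all genes. The median log2 fold change of the list was −0.10, that of all genes −0.03. *Sharpin*, an inhibitor of integrin activation, fell from 129 ± 16.1 to 89.5 ± 9.87 (log2 fold change −0.52, SE 0.14, limma adjusted p = 0.00864). *Skap1* and *Fyb1*, adaptors that link the T cell receptor to integrins, fell from 529 ± 9.05 to 416 ± 38.0 (−0.35, SE 0.09, adjusted p = 0.00375) and from 1557 ± 93.3 to 1263 ± 106 (−0.30, SE 0.07, adjusted p = 0.00152). *Flna*, the filamin A gene, whose product competes with talin at β tails, fell from 479 ± 28.8 to 384 ± 3.24 (−0.32, SE 0.09, adjusted p = 0.0147). Each of these 4 genes had KO libraries below all controls, beside 10.5% of all genes, but they were named because they were called in these same libraries. The calls lean on single pairs: that of *Sharpin* was lost without replicate 1 (limma adjusted p = 0.107) or 3 (0.111), that of *Skap1* without replicate 1 (0.18), that of *Fyb1* without replicate 2 (0.22) and that of *Flna* without replicate 2 (0.292) or 3 (0.0531) and without the replicate block (0.0669).

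*Skap1* and *Fyb1* also differed in their response between tissues, by −0.71 (SE 0.14, limma adjusted p = 0.00226) and −0.53 (SE 0.13, adjusted p = 0.0232) in parenchyma minus spleen on the log2 scale, as did *Rasgrp2*, an exchange factor for Rap1 (−0.75, SE 0.20, adjusted p = 0.0415). These 3 were the calls among 23 genes of the list that were tested for this, beside 2.1% of all genes. They were lost without replicate 1 for *Skap1* (adjusted p = 0.133), without replicate 1 (0.207) or 2 (0.298) or the block (0.0776) for *Fyb1*, and without any 1 of the 3 (0.16 to 0.211) or the block (0.173) for *Rasgrp2*. In the spleen comparisons 0 of 24 (*Ets1*) and 0 of 25 (*Grk2*) genes of the list were called by limma. At an unadjusted p under 0.05 were 4 and 3 genes, beside 14.1% and 10.4% of all genes. For *Skap1* and *Fyb1* the tissue difference was farther from 0 than the parenchyma fold change (−0.71 against −0.35, −0.53 against −0.30). Their spleen estimates for *Ets1*-KO were therefore above 0.

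Of the 20 other integrin subunits, 3 passed the minimum in the parenchyma and 2 in each spleen table. In the parenchyma 1 of 3 was called, beside 5.23% of all genes. At an unadjusted p under 0.05 in limma were 2 of 3, beside 16.9% of all genes. *Itga1*, a collagen receptor chain that pairs with β1, fell in parenchyma *Ets1*-KO cells from 59.6 ± 16.1 to 37.9 ± 10.1 (log2 fold change −0.64, SE 0.20, limma adjusted p = 0.0367), with overlapping groups. Its call was lost without replicate 2 (adjusted p = 0.228) or 3 (0.605) and without the replicate block (0.126). None (0 of 2) was called in either spleen table, with 1 in each at an unadjusted p under 0.05, beside 14.1% and 10.4% of all genes.

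In the list of 17 selectin ligand enzymes and other adhesion molecules, *Cd44*, a hyaluronan receptor, was called in opposite directions. It fell in parenchyma *Ets1*-KO cells from 158 ± 13.6 to 105 ± 13.7 (log2 fold change −0.59, SE 0.13, limma adjusted p = 0.000484) and rose in spleen *Grk2*-KO cells from 364 ± 42.7 to 485 ± 27.7 (0.42, SE 0.08, limma adjusted p = 0.000408). The latter call was lost without replicate 1 (adjusted p = 0.261) or 2 (0.144) and without the block (0.076). *Gcnt1*, an enzyme that builds core-2 O-glycans of selectin ligands, rose in spleen *Ets1*-KO cells from 49.5 ± 15.0 to 103 ± 8.70 (1.08, SE 0.19, adjusted p = 0.00328), and lost the call without replicate 1 (0.397). These were 1 of 7, 1 of 8 and 1 of 10 genes tested in the parenchyma, spleen *Ets1* and *Grk2* tables, beside 5.23%, 2.22% and 1.56% of all genes.

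Of 15 integrin ligands and partners, 8 were tested in each table, and 1 was called in the *Grk2* table, beside 1.56% of all genes. *Cd47*, which associates with integrins and signals against phagocytosis, rose in spleen *Grk2*-KO cells from 859 ± 60.9 to 1111 ± 36.5 (log2 fold change 0.37, SE 0.07, limma adjusted p = 0.000153). Its KO libraries were above all controls, as in 7.59% of all tested genes. The call was lost without replicate 1 (adjusted p = 0.0808) or 2 (0.313). In the *Ets1* comparisons 0 of 8 were called by limma in either tissue, with 3 in the parenchyma and 0 in the spleen at an unadjusted p under 0.05, beside 16.9% and 14.1% of all genes.

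The genes whose 9 KO to control ratios correlated best with those of *Itgb1*, among 6207 genes, were *Ddx19b* (Pearson r = 0.98), *Tubb5* (r = 0.96) and *Serpinb8* (r = 0.95). None of these genes was called for *Grk2*-KO (limma adjusted p = 0.572, 0.525 and 0.0654). *Tubb5* was called lower in *Ets1*-KO cells of the parenchyma (log2 fold change −0.71, limma adjusted p = 1.43e-15) and the spleen (−0.47, adjusted p = 0.0313), where *Itgb1* was not called. Its log2 fold change for *Grk2*-KO was 0.12. The 9 ratios share tables and libraries, and a large part of such an r is the step between the *Ets1* and *Grk2* tables, so no p is given. Among members the r with *Itgb1* ran from −0.67 for *Itga4* to 0.70 for *Itgae*.

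ETS1 is a transcription factor of a family that binds GGAA cores, which is why promoters were scanned for the letters CCGGAAG on either strand. RefSeq windows (GRCr8, 250 bases before to 50 after the start) were found for 7 of the 10 members, and 0 of 7 held these letters, beside 8.75% of 33469 windows of the same length. This says that the letters are not in these windows and nothing about binding.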

How the data were processed

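RNA of sorted rat T-MBP cells was sequenced in 18 libraries, grouped by their labels. The authors prepared 3′ mRNA libraries, aligned reads to Rnor_6.0 with STAR 2.7.2b, counted them per gene with HTSeq and divided them by DESeq2 size factors (poscounts). The deposited signal values are these normalized counts, in 3 tables scaled apart. All positive values (100%) were whole multiples of 1 step per library (tolerance 0.01), from which reads were computed. For 2 parenchyma *Ets1*-KO libraries, which share a step near 1, a check did not accept the reads as recovered, and count tests were kept to the spleen. Precision rests on 898092 to 2248258 reads per library. The authors' own fold changes, p-values and pathway results, and 8 columns of human values, were not used.

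Genes with a mean of at least 10 were tested two-sided on log2(value + 1) with limma 3.58.1 (trend in eBayes, replicate number as a block, after the authors' correction per animal; Benjamini-Hochberg adjusted p under 0.05). Same-numbered libraries are taken as 1 animal from the co-transfer and not from the labels. The tissue comparison used pair ratios. The weight of the variance trend, as prior degrees of freedom, was infinite in the parenchyma and 141 in the *Grk2* table. It was 22.0 in the spleen *Ets1* table and 33.1 for the tissue difference. The higher this weight, the less an SE or interval measures the spread of a gene's own libraries. The authors state that all replicates are biological, which the labels do not repeat. Alternatives were other settings, edgeR 4.0.16 and DESeq2 1.42.0. Scripts were tested on simulated data. Overlap of groups was read from the values, and exact permutation tests used 20 labellings.

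Members, lists and tests were chosen with earlier results of these data known, and the result for *Itgb1* was among them. Named genes were all members, the edited genes, up to 4 called genes per list with the largest fold changes, and the 3 genes most like a called member.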

Additional observations from a re-analysis of the deposited data

How the results depend on the processing

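The direction of member fold changes that were near 0 moved with the libraries left out, and most counts of called genes moved by more than 1.5 times. With 1 pair left out, the number of genes called lay between 165 and 278 in the parenchyma, 3 and 241 in the spleen *Ets1* table (3 without replicate 1), 9 and 48 in the *Grk2* table (9 without replicate 2) and 26 and 96 for the tissue difference, and the number of members called lay between 0 and 1 in the parenchyma. Without the variance trend 3, 0, 0 and 2 genes were called in that order (893, 785, 571 and 757 at an unadjusted p under 0.05), and 0 members in the *Grk2* table. Without the count minimum 212 genes were called in the parenchyma and 242 in the spleen *Ets1* table. On recovered reads edgeR called 238 genes in the spleen *Ets1* table and 90 in the *Grk2* table, and DESeq2 50 and 9. The count tests were not run for the parenchyma or the tissue difference, because reads of 2 parenchyma columns were not accepted as recovered. Quantile normalization moved the split of higher and lower calls from 65 and 44 to 34 and 41 in the *Grk2* table, and edgeR split its calls there 43 and 47. The cause of these changes was not tested.

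Without the replicate block 200, 71, 19 and 47 genes were called in the parenchyma, spleen *Ets1*, *Grk2* and tissue comparisons, against 366, 155, 109 and 137 with it, and *Itgb1* was still called for *Grk2*-KO (log2 fold change 0.36, limma adjusted p = 0.0337). Deviations of same-numbered libraries correlated by 0.13, 0.16 and −0.003 in the parenchyma, 0.09, 0.08 and 0.18 in the spleen *Ets1* table and 0.14, 0.0062 and 0.12 in the *Grk2* table, so that not every pair was over 0.1. Every library correlated best with its own number in the spleen *Ets1* table only, a hint from the data and not from the design.

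With 1 pair left out, these log2 values changed sign, none of them called: in the parenchyma *Itgb1* (−0.037 to 0.036) and *Itgb7* (−0.13 to 0.073), in the spleen *Ets1* table *Itgal* (−0.051 to 0.017), *Itgb1* (−0.021 to 0.065), *Tln1* (−0.16 to 0.030) and *Fermt3* (−0.032 to 0.11), in the *Grk2* table *Itgal* (−0.048 to 0.023), *Itgb7* (−0.050 to 0.16), *Fermt3* (−0.071 to 0.029) and *Rap1b* (−0.43 to 0.31), and between tissues *Itga4* (−0.010 to 0.38), *Itgb1* (−0.051 to 0.025), *Itgb2* (−0.13 to 0.14), *Itgb7* (−0.088 to 0.13) and *Tln1* (−0.23 to 0.0066). The log2 ratio of parenchyma over spleen controls of *Itgal* was −0.45 in the *Ets1* experiment, and became −0.29 without mitochondrial reads and −0.37 on normalized counts. For the *Grk2* spleen it was 0.15 on normalized counts. The ratio of *Tln1* became −0.68 without mitochondrial reads in the *Ets1* experiment and 0.14 on normalized counts against the *Grk2* spleen. The other 31 values of control levels moved by less than the spread between libraries. Of the 12 calls named from the gene lists, all 12 were lost without the variance trend (limma adjusted p between 0.245 and 0.574), *Itga1* (0.0992), *Flna* (0.0516) and *Rasgrp2* (0.0664) with quantile normalization, *Itga1* (0.161) and *Flna* (0.0659) without the count minimum, *Rasgrp2* with a pseudocount of 5 (0.05), and *Cd44* (0.42) and *Cd47* (0.0802) for *Grk2*-KO with DESeq2, which gave no adjusted p for *Gcnt1*.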

Other observations

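In the spleen *Ets1* experiment the libraries of replicate 3 held the highest values of *Itga4*, *Itgal* and *Rap1b* in both groups. These genes were picked for that pattern, and the share of all genes that show it was not computed. Control replicate 3 was also the library with the fewest reads, at 898092. *Itga4* read 346 in control replicate 3 against 245 and 250, and 366 in *Ets1*-KO replicate 3 against 276 and 244. *Itgal* read 284 against 272 and 258 in controls and 290 against 253 and 259 in KO cells. *Rap1b*, at far fewer reads, read 9.40 against 3.28 and 1.08 in controls and 14.4 against 5.48 and 1.24 in KO cells. The KO over control ratio of *Itga4* in that pair was 0.079 on the log2 scale, within the range of the other pairs at 0.17 and −0.030.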
